A study of Pomatostomus ruficeps with 28 samples.

Results

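Nestlings of the chestnut-crowned babbler, a cooperatively breeding songbird of arid Australia, were compared 2 at a time to ask whether those of the same natal group were more alike in blood DNA methylation than those of different natal groups. A natal group is the letter code deposited with each nestling, such as OFS or SFO, and any 2 nestlings compared are called a dyad here. The 28 nestlings form 378 dyads, of which 11 shared both the natal group code and the carer class. These 11 dyads involve 14 nestlings of 6 codes: SFO and OFQ with 2 nestlings each raised by pairs, BFD, EFH and NFI with 2 nestlings each raised by groups, and OFS with 4 nestlings raised by groups, which alone gives 6 dyads. They were set against the 196 dyads of different codes and equal carer class. A further dyad shared the code CEG but not the carer class, and 170 dyads shared neither.

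Wild nestlings raised by groups (n = 19, 3+ carers, 14 to 20 days old) and by pairs (n = 9, 2 carers, 14 to 19 days old) were sampled once from the brachial vein, and the genomic DNA of their blood was converted enzymatically and sequenced. All had hatched from eggs moved to an incubator, and each chick was then put into its own nest or cross-fostered into an unrelated one. The deposited values neither define the natal group code nor say which chicks were cross-fostered, so a code cannot be told apart here from parentage, nest or social unit. Sampling spanned more than a single breeding season. The EFH nestlings, both 14 days old, were at 34 and 4 days since rain, so nestlings of a code are not taken here as broodmates. The labels give neither replicate numbers nor a sequencing batch.

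DNA methylation is a methyl group on the cytosine of a CpG, copied to the new strand when a cell divides, and bird red blood cells keep their nucleus and so their methylated DNA. Nestlings of one brood share a nest, feeding adults, weather and, unless moved, parents. Methylation at a CpG can also follow the DNA sequence around it, and a CpG in which some birds carry T for C is read as unmethylated after conversion whether or not a methyl group was ever there. The methods describe no step that removes such sequence variants, and their part in the values below was not tested.

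The table held 33225279 percentages at 1564780 CpG sites, with a value in 18 or more nestlings per site (median 21). Recovered reads totalled 5266843 to 19539803 per nestling, with a mean of 7.44 to 13.6 reads behind a value, and 30.2% of values were exactly 100%. Group nestling 79687, of code OFS, stood apart: it had the fewest sites with a value (629681), none with fewer than 10 reads, and its reads were deposited while those of the other 27 nestlings had to be recovered from the coverage. It belongs to 3 of the 11 dyads. The differences over all sites and at the most variable sites are also given without it. Other results, such as those by carer class, are not.

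Over all sites a dyad shared, 294563 to 1389021 in dyads of different codes and equal carers, each nestling was expressed as its deviation from the site mean, and the deviations of a dyad were correlated. A deviation is taken from a mean that contains the nestling itself, so nestlings with nothing in common sit near r = -0.0500, not near 0. The same centring holds the mean r over all dyads near that value, whether or not nestlings are alike. Dyads of different codes and equal carers lay there, at a mean r of -0.0491 ± 0.0102 (SD over 196 dyads). Nestlings of the same natal group had a mean r of -0.0378 ± 0.0208 (SD over 11 dyads), so their r was 0.0113 higher. The difference was larger than that given by shuffling the codes among nestlings of a carer class (two-sided permutation test, p = 0.00438, 0.0149 after adjustment over 17 comparisons). It was 0.00949 without nestling 79687 (two-sided permutation test, p = 0.0129), and 0.0265 where only values of 10 or more reads entered (two-sided permutation test, p = 0.00118). It did not pass without the tenth of sites with the highest SD (0.00310, permutation p = 0.0865), with Spearman's rho (0.00598, permutation p = 0.0614) or over sites measured in every nestling (0.0160, permutation p = 0.0508). Of the dyads, 6 come from OFS and share its 4 nestlings, so the 11 dyads are not 11 independent values.

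The 11 dyads were not alike in this. Nestlings 79684 and 79687 of OFS had r = 0.00897 and the SFO nestlings 79561 and 79563 had r = -0.0132, both above each of the 196 dyads of different codes, whose highest r was -0.0182. The OFQ nestlings 79676 and 79677 followed with r = -0.0239 and the NFI nestlings 79555 and 79556 with r = -0.0376. Both lay inside the range of dyads of different codes, as did the others: EFH at -0.0443, the remaining 5 dyads of OFS between -0.0573 and -0.0400, and BFD at -0.0581, the lowest of the 11. With the median over dyads in place of the mean, the difference was 0.00500 and did not pass (two-sided permutation test, p = 0.18).

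**Figure D1:**
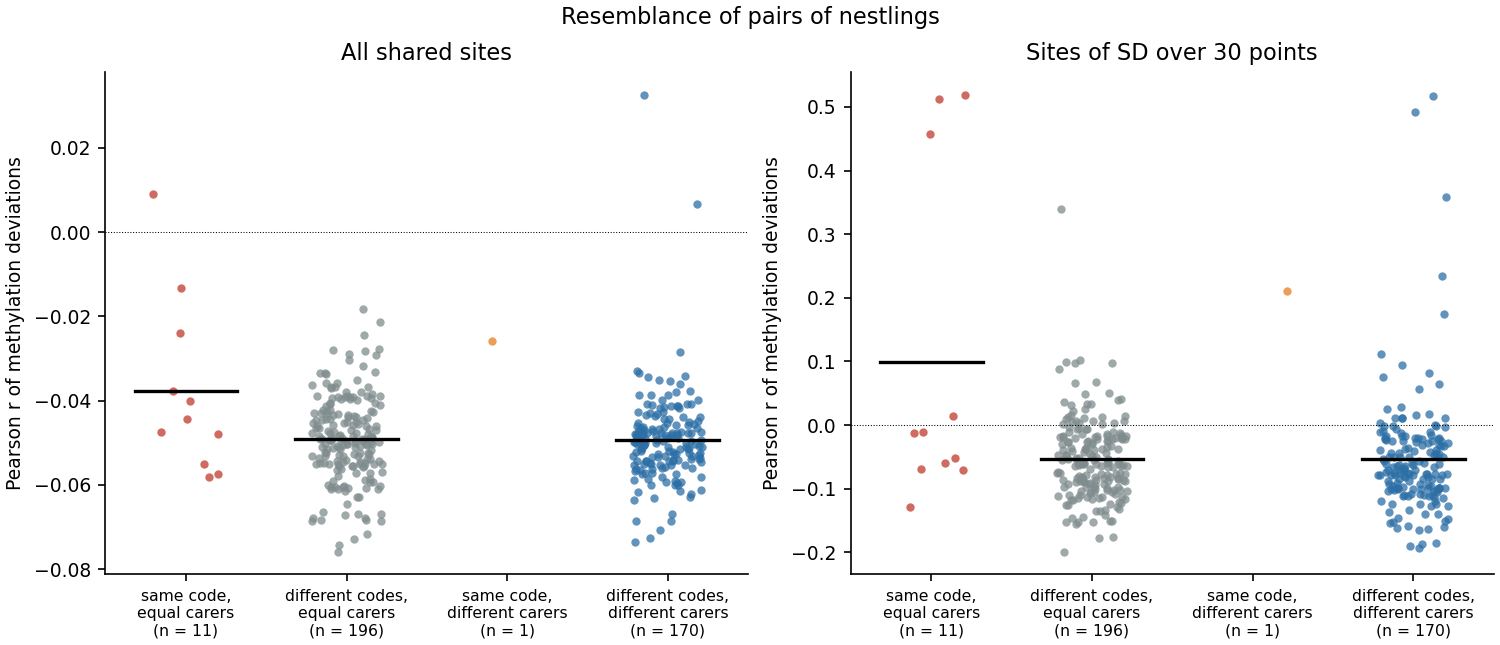
Pearson's r of methylation deviations (vertical axis) for every dyad, over all shared sites on the left and over sites of SD above 30 percentage points on the right; each point is a dyad and bars are means. Most of the 11 dyads of the same code and carers overlap the 196 of different codes, and the highest r over all sites, 0.0325, belongs to a dyad that shares neither code nor carers.

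The mean absolute difference in methylation, the second measure of likeness, did not separate the dyads. It was 12.42 ± 0.449 percentage points (SD over 11 dyads) within natal groups and 12.41 ± 0.389 points (SD over 196 dyads) between them, which put natal groups 0.0128 points higher (two-sided permutation test, p = 0.909). Within natal groups it ran from 11.93 points in 79684 and 79685 of OFS, and 11.93 points in SFO, to 13.18 points in 62642 and 79687 of OFS. The 3 dyads with nestling 79687 stood at 12.70, 13.13 and 13.18 points, and the OFQ dyad at 12.73 points. With nestling 79687 left out, natal groups minus others came to -0.140 points (two-sided permutation test, p = 0.153). Leaving out OFS gave -0.120 points. With a median of 9 reads behind a value, counting error adds to absolute differences on average and can hide likeness. With only values of 10 or more reads, the mean absolute difference was 12.87 points within natal groups and 12.91 points between them. The part of counting error was not tested.

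Both measures moved with depth: the mean absolute difference was higher, and r lower, in dyads with more reads. Over the 207 dyads of equal carers, the mean absolute difference and the mean reads per value at the shared sites had a Pearson's r of 0.491 and a Spearman's rho of 0.575, and the r of methylation deviations and the same reads had -0.299 and -0.510, given as descriptions since dyads share nestlings. Reads per value, their difference within a dyad and the number of shared sites together took up 32.4% of the variance over dyads in mean absolute difference and 35.6% of that in r. After these were regressed out, r remained 0.00867 higher within natal groups (two-sided permutation test, p = 0.00952) and the mean absolute difference was 0.0264 points higher (two-sided permutation test, p = 0.814).

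**Figure D2:**
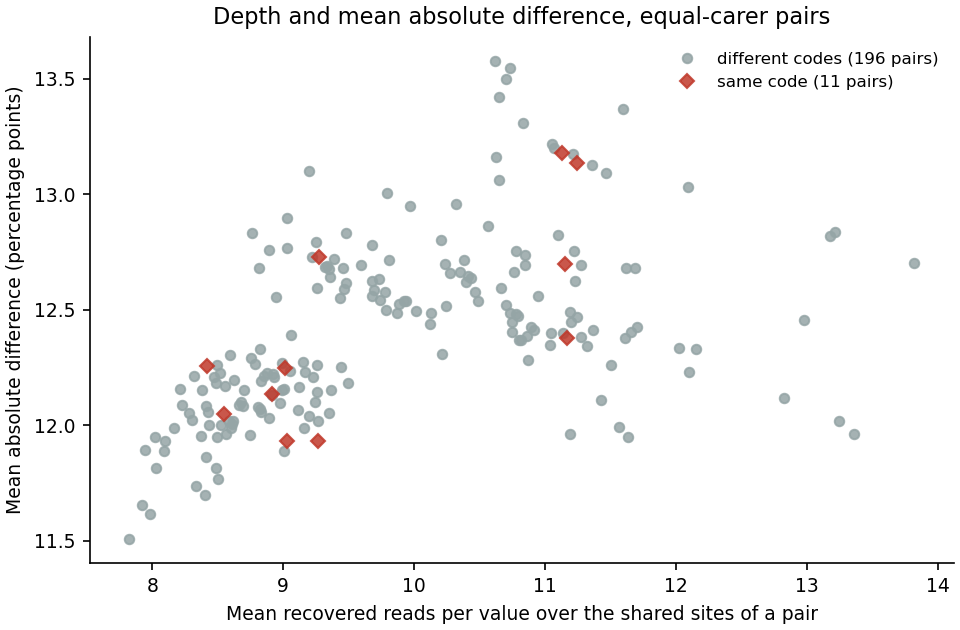
Mean absolute difference in methylation (percentage points) against the mean recovered reads per value at the shared sites, for the 207 dyads of equal carers, with those of the same code as red diamonds. The red diamonds lie within the cloud of grey points at every depth, between 11.93 and 13.18 points.

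No likeness in read depth within natal groups was detected, although its difference in r, 0.0137, was no smaller than that for methylation. Correlating the deviations of log2 reads in the same way gave a mean r of -0.0220 within natal groups and -0.0357 between them (two-sided permutation test, p = 0.477). Nestlings of a natal group differed by 0.236 in mean log2 reads per value against 0.292 between groups (two-sided permutation test, p = 0.484), and the overlap of their covered sites was 53.6% against 59.3% (two-sided permutation test, p = 0.308).

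The difference in mean r between dyads of the same and of different codes grew with the spread of a site over all 28 nestlings. At the 552547 sites with an SD of 10 percentage points or less, r was 0.00170 higher within natal groups (two-sided permutation test, p = 0.17). It was 0.00400 higher at sites with an SD of 10 to 15 points (two-sided permutation test, p = 0.0427, adjusted p = 0.121), the band that holds 56.6% of the table. At the 103475 sites of 15 to 20 points it was 0.0212 higher (two-sided permutation test, adjusted p = 0.00603), and at the 20632 sites of 20 to 30 points 0.0785 higher (two-sided permutation test, adjusted p = 0.00238). At the 2579 sites with an SD over 30 points, 0.165% of the table, the mean r was 0.0998 within natal groups and -0.0538 between them, 0.154 apart (two-sided permutation test, p = 0.00026, adjusted p = 0.00238). Without nestling 79687 they were 0.141 apart (two-sided permutation test, p = 0.0041), and with medians over dyads 0.0474 (two-sided permutation test, p = 0.0342). The median r within natal groups at SD over 30 was -0.0124, below the mean of 0.0998. These bands of SD were chosen with the values in view. A median of 9 reads stood behind a value, so counting error adds to the spread of every site, and its part in each band was not tested.

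**Figure D3:**
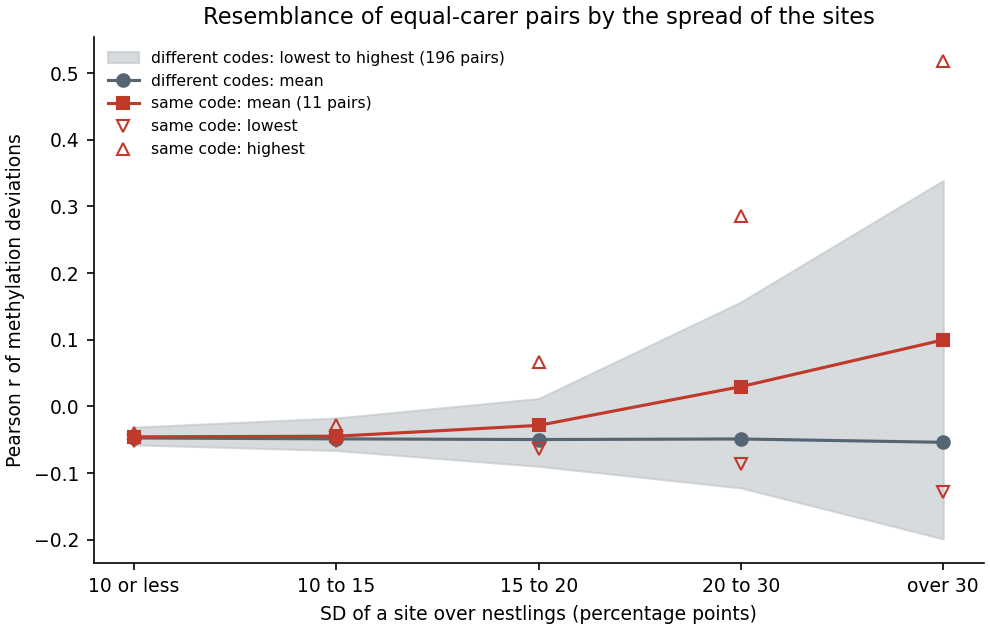
Pearson's r of methylation deviations in dyads of equal carers (vertical axis) by the SD of the sites over nestlings (horizontal axis); squares are the mean and triangles the extremes of the 11 dyads of the same code, circles the mean and the grey band the extremes of the 196 dyads of different codes. The means part from an SD of 15 points upwards, to 0.0998 and -0.0538 at the right, while the lowest dyad of the same code stays inside the band.

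Sites of SD over 30 points were sites where some nestlings took opposite values. At 98.4% of them some nestling was at 10% or less and another at 90% or more, against 1.03% of all sites. Percentages are bounded, so choosing sites by a high SD favours such extremes, and this share is not independent of the choice. Of their values 15.4% were at 10% or less, 51.5% in between and 33.1% at 90% or more. They lay on 1397 scaffolds, had a mean methylation of 65.8%, and a median of 11 reads behind a value against 9 over all sites.

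At these sites the 11 dyads fell apart into 3 that were much alike and 8 that were not. The SFO nestlings 79561 and 79563 had r = 0.519 over 1199 sites, the highest of all 378 dyads. In OFS, 79684 and 79687 had r = 0.512 over 1118 sites, and in OFQ, 79676 and 79677 had r = 0.457 over 1448 sites. These 3 dyads were above each of the 196 dyads of different codes, whose highest was 0.339 and whose mean was -0.0538 ± 0.0634 (SD).

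The other 8 dyads lay inside the range of dyads of different codes. NFI had r = 0.0141 over 752 sites, EFH -0.0591 over 853 sites and BFD -0.129 over 1867 sites, the lowest of the 11. Within OFS, nestling 79685 had r = -0.0112 with 79684, -0.0124 with 79687 and -0.0696 with 62642, and nestling 62642 had r = -0.0516 with 79684 and -0.0710 with 79687. OFS therefore held a single alike dyad among its 6, and 62642 and 79685 were not in it.

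The share of these sites at which 2 nestlings were 50 points or more apart divided the dyads less clearly. It was 12.8% in SFO, 13.7% in OFQ and 17.5% in 79684 and 79687 of OFS. In the other 8 dyads it ran from 19.8% in EFH to 38.8% in BFD, against a mean of 29.8% ± 6.35 (SD) and a range of 14.7 to 44.0% over the 196 dyads between natal groups. Only SFO and OFQ lay below that range, and the OFS dyad lay within it. The mean over all 11 dyads was 25.6% ± 9.33 (SD), and the difference from dyads of different codes did not pass (two-sided permutation test, p = 0.0935, adjusted p = 0.227).

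The 3 alike dyads had an equal weather record, that is, the same number of days since rain and the same rain value: 51 days in SFO, 4 days in OFQ and 3 days for 79684 and 79687. Equal records were also held by the NFI nestlings (48 days) and the BFD nestlings (43 days), which were not alike. Over the 5 dyads with an equal record r at sites of SD over 30 ran from -0.129 to 0.519 with a mean of 0.275, and over the 6 without it from -0.0710 to -0.0112 with a mean of -0.0458. Among dyads of different codes and equal carers only 2 had equal records, BFG nestling 79594 with each BFD nestling, and their r was -0.0556 and -0.0848. No test was made of this division. With the difference in days since rain regressed out over dyads, r at sites of SD over 30 was 0.126 higher within natal groups (two-sided permutation test, p = 0.001). Without that step it was 0.154 higher, and the regression took up 7.82% of the variance over dyads. As only 2 dyads of different codes and equal carers had equal records, this step cannot tell weather and natal group apart. Across carer classes, EFH nestling 79633 had an equal record with the OFQ nestlings 79677 (r = 0.359) and 79676 (r = 0.234), which the regression did not use.

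**Figure D4:**
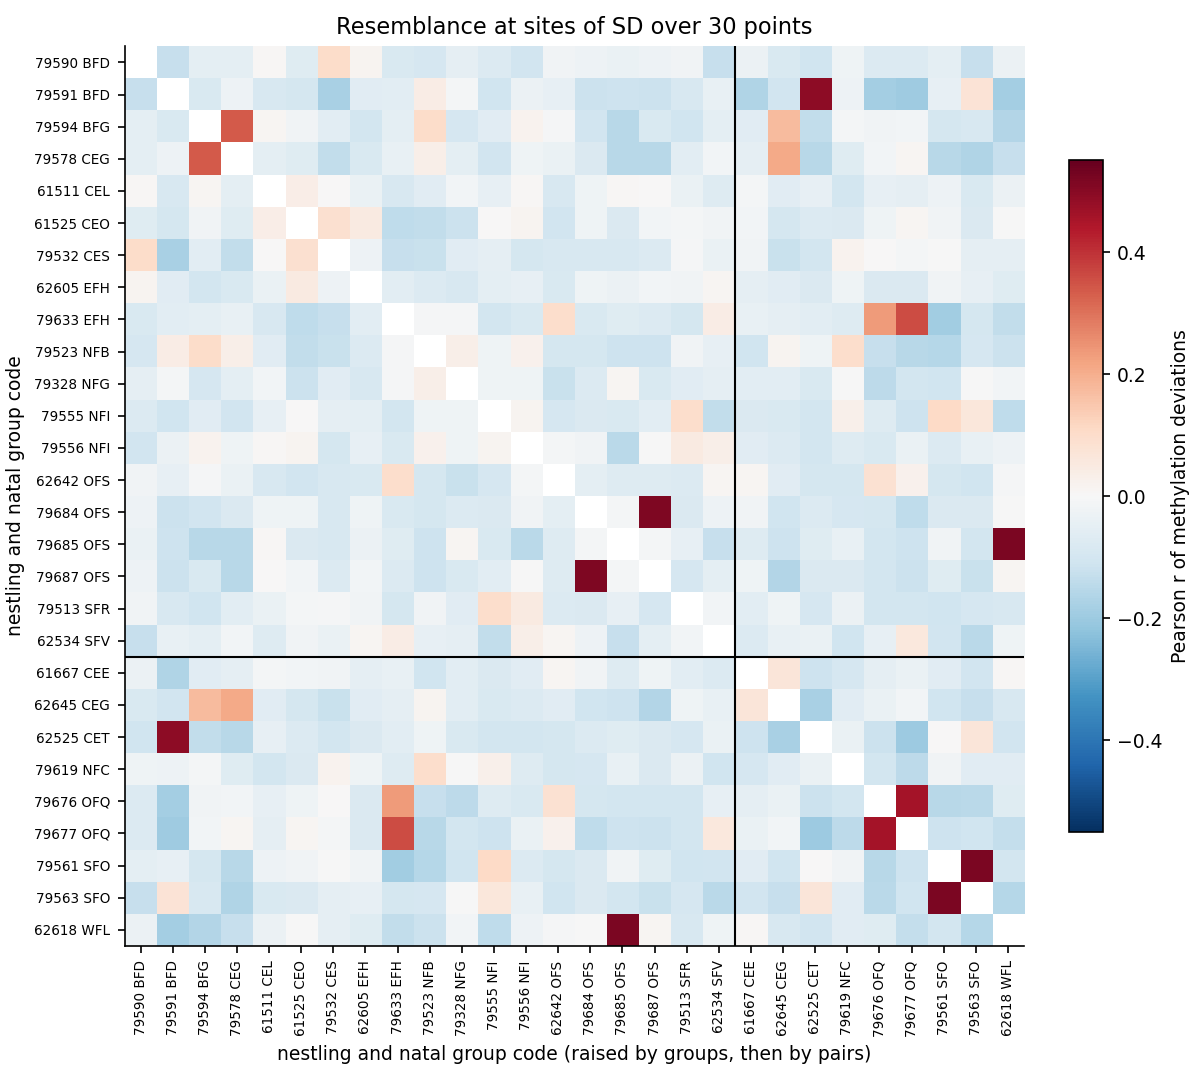
Pearson's r of methylation deviations at sites of SD over 30 points for all dyads, with nestlings ordered by carer class (lines divide groups from pairs) and natal group code on both axes, and the diagonal left blank. Dark red cells mark the 5 dyads with r from 0.457 to 0.519. Of these, 3 lie within OFS, OFQ and SFO and the others join different codes across the carer classes.

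Several of the most alike dyads had different codes. Pair nestling 62618 of WFL and group nestling 79685 of OFS had r = 0.518 at sites of SD over 30, rank 2 of the 378 dyads, and r = 0.00675 over all sites. Pair nestling 62525 of CET and group nestling 79591 of BFD had r = 0.4927, rank 4, and over all sites the highest r of any dyad, 0.0325. Within their own codes at sites of SD over 30, 79685 had r = -0.0112 with 79684, -0.0124 with 79687 and -0.0696 with 62642. Nestling 79591 had r = -0.129 with 79590 of BFD. The mean over dyads of different codes and equal carers was -0.0538. Group nestling 79633 of EFH had r = 0.359 with 79677 and 0.234 with 79676, the OFQ nestlings raised by a pair, and had the same weather record as both. An r of 0.339 joined CEG nestling 79578 and BFG nestling 79594, both raised by groups.

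The CEG nestlings 62645, raised by a pair, and 79578, raised by a group, shared the code but not the carer class. Their r was 0.210 at sites of SD over 30 and -0.0259 over all sites, rank 9 of 378 on each. With the carer class ignored, so that this dyad joined those of the same code and 170 others joined those of different codes, r was 0.0124 higher within natal groups over all sites (two-sided permutation test, p = 0.0031) and 0.163 higher at sites of SD over 30 (two-sided permutation test, p = 0.00012).

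Counted by nestling, 6 of the 14 nestlings with a partner of the same code and class had that partner as the nestling most like them at sites of SD over 30. These 6 are the nestlings of the alike dyads in SFO, OFQ and OFS, so the count is not separate from those dyads. For the other 8 the most alike partner was a nestling of another code. In 79633, 79685 and 79591 this partner was in the other carer class and the r was 0.359 or more, while for 62605, 62642, 79555, 79556 and 79590 the highest r with any nestling was 0.111 or less.

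The carer classes were also taken apart. Among nestlings raised by pairs, both dyads of the same code were among the 3 alike dyads, and r over all sites was 0.0330 higher within natal groups than between them (2 against 34 dyads). Codes can be assigned in only 378 ways in this class and the exact two-sided permutation p of 0.00529 was the smallest that this allows. With deviations taken from the site means of this class alone, the difference was 0.0337 (exact two-sided permutation test, p = 0.0106). Among nestlings raised by groups, r was 0.00648 higher within natal groups (9 against 162 dyads), which did not pass (two-sided permutation test, p = 0.132). At sites of SD over 30 r was 0.569 higher in pairs (exact two-sided permutation test, p = 0.00529) and 0.0617 higher in groups (two-sided permutation test, p = 0.0598). Of the 9 dyads in groups, only 79684 with 79687 of OFS was among the alike dyads (r = 0.512). The values for groups were not computed without nestling 79687.

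Nestlings of a natal group were closer in days since rain, although 6 of the 11 dyads had unequal records. The days since rain differed by 6.09 days within natal groups and by 27.9 days between them (two-sided permutation test, p = 0.00044, adjusted p = 0.00249). Age differed by 1.18 days against 1.97 days (two-sided permutation test, p = 0.136), hatching mass by 0.316 g over 10 dyads against 0.301 g over 116 dyads (two-sided permutation test, p = 0.869), and the growth rate, deposited without a unit, did not differ detectably (two-sided permutation test, p = 0.165). Mean methylation over the 7729 sites measured in every nestling differed by 0.699 points within natal groups and 0.922 points between them (two-sided permutation test, p = 0.27). With the difference in days since rain regressed out over dyads, r over all sites was 0.00925 higher within natal groups (two-sided permutation test, p = 0.017). Equal records were rare in dyads of different codes and equal carers, so weather and natal group cannot be told apart by that step.

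Single sites were then tested for a difference between natal groups within carer class. Of the 1178653 sites with at least 4 residual degrees of freedom, 0 passed an adjusted p of 0.05 (limma moderated F test, Benjamini-Hochberg, 0% of sites), and 48650 sites, 4.13%, had an unadjusted p under 0.05. The number passing was also 0 on the logit and the arcsine scale. It was 21 of 65104 sites when values of fewer than 10 reads were left out, 306 of 373575 sites with at least 6 residual degrees of freedom and 1260 of 1176666 sites without moderation of the variance. The residual rests on the 14 nestlings with a partner, at most 8 degrees of freedom and a median of 5.

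Since no site passed, the 3 sites of smallest p are described without a claim of difference (limma, adjusted p = 0.292 for each). At position 224863 of scaffold VYZT01049522.1, the BFD nestlings were at 0% on 10 and 21 reads and the SFO nestlings at 100% on 6 and 5 reads. There the 3 OFS nestlings with a value were at 90% on 10 reads and 100% on 11 reads each. Group nestlings 61511 and 62534 and pair nestling 61667 were also at 0%, so the value of BFD was not its own.

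At position 10482 of scaffold VYZT01007780.1 both OFQ nestlings were at 0%, on 16 and 13 reads. The BFD nestlings, on 10 and 17 reads, and 3 OFS nestlings, on 5, 6 and 17 reads, were at 100%. Of the nestlings of other codes 2 were at 0%, 62605 of EFH on 15 reads and 79523 of NFB on 10 reads.

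At position 32879 of scaffold VYZT01033903.1 the OFS nestlings 62642, 79684 and 79687 were at 0%, on 10, 12 and 12 reads, along with 79513 of SFR on 13 reads. Both NFI nestlings, on 6 and 5 reads, and both OFQ nestlings, on 7 and 13 reads, were at 100%. Intermediate values were found in 79591 of BFD (38.5%), 62525 of CET (40.0%), 62534 of SFV (60%) and 79578 of CEG (70%). Gene annotation of these positions was not used here.

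**Figure D5:**
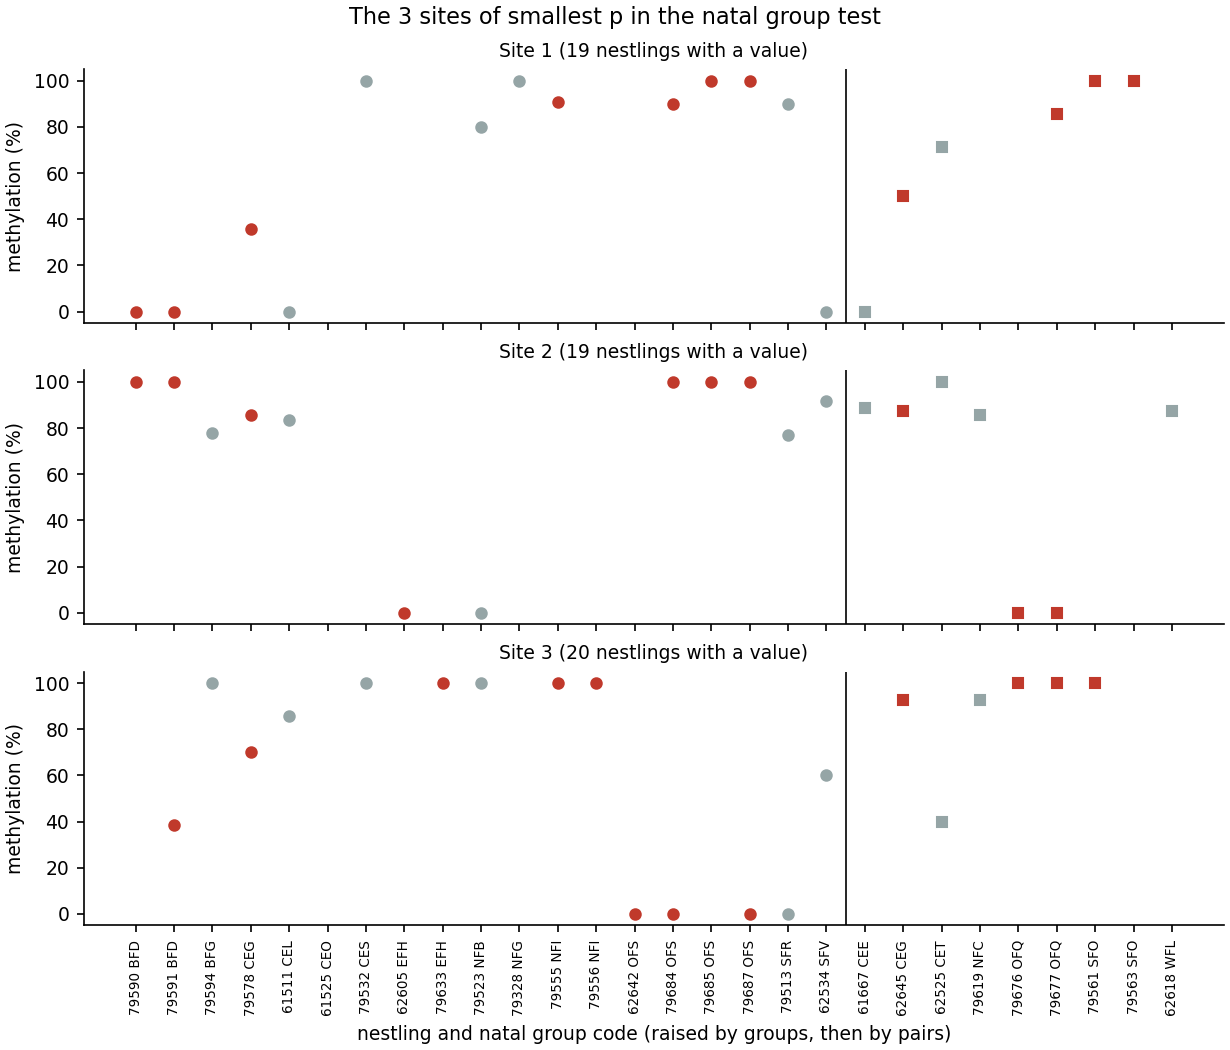
Percentage of methylated reads (vertical axis) in each nestling with a value at the 3 sites of smallest p, with nestlings ordered by carer class (line) and natal group code; circles were raised by groups, squares by pairs, and red marks codes carried by more than 1 nestling. The sites were chosen for their small p; both BFD nestlings lie at 0% at the first and both OFQ nestlings at 0% at the second, while the CEG nestlings lie at 50% and 35.7% at the first.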

How the data were processed

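Enzymatically converted blood DNA of 28 nestlings was sequenced. HTStream served to trim the reads and Bismark to map them and call CpG sites, with both strands merged. The authors then dropped sites of low coverage (under 10) or extreme coverage, of too few nestlings per carer class or of little variation. Each deposited value is the percent of reads that were methylated at a site in a nestling, without scaling across libraries. Read counts were deposited for nestling 79687, in which they add up to the deposited coverage. For the other 27, whole reads were recovered from percentage and coverage at every value (tolerance 0.0001). Coverage was taken as unmethylated reads plus 2 times methylated reads. Either term was omitted where it came to less than 10, the methylated term being counted after doubling. This reading was chosen with the data in view. Under it a median of 62.5% of a nestling's values rested on fewer than 10 reads, below the coverage limit that the paper states. A value at 0% therefore rests on at least 10 reads and a value near 100% may rest on 5. Other columns hold field records and the variance of each site.

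Dyads were compared by Pearson's r of deviations from the site mean and by mean absolute difference over shared sites. Natal group codes were permuted within carer class (100000 resamples, two-sided p as 2 times the smaller tail), with Benjamini-Hochberg adjustment over 17 comparisons. Each permutation p sets the observed difference against those from shuffled codes of these nestlings. The site test compared means of carer class and natal group with means of carer class in percentage points, with the variance moderated by limma 3.58.1. Moderation pulls sites to a common variance, so small p-values gather at sites of high SD. Sites named are the 3 of smallest p, as the rule sets where none passes. Both tests were run on simulated normal values, with and without planted natal group shifts. Those values were unbounded and carried no read counts, so they do not show how the tests behave on these percentages. Members, measures and lists were chosen with earlier results of these data known. Python 3.11.15, numpy 2.4.6, scipy 1.17.1 and R 4.3.3 were used. Intervals of single percentages are not given, and read numbers cover counting error only.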

Additional observations from a re-analysis of the deposited data

Results flagged for a closer look

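Within the 4 OFS nestlings, 79687 lay apart from the others in the number of sites with a value (629681) and in mean reads per value (12.7). These were 2 of 6 sets of values examined for a lone extreme, and chance marks about 1 set in 20. Both flags fall on the same nestling and are not independent. None of its values rested on fewer than 10 reads, while values of the other OFS nestlings rested on as few as 5 recovered reads.

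The gain in r within natal groups was smaller in groups than in pairs. Over all sites it was lower in groups than in pairs by 0.0265 (-0.0265, groups minus pairs, codes permuted within class, permutation p = 0.00792), and at sites of SD over 30 the difference was -0.508 (permutation p = 0.00544). Both had an adjusted p of 0.0119 over 3 such tests. Shuffled codes carry no gain in either class, so these p-values do not test whether the gains of the classes are equal. A gain in a single class can give them. The class raised by pairs contributes 2 dyads of the same code, and the cause was not tested.

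Dyads across the carer classes, which no comparison by equal carers used, held values above all 196 dyads of different codes and equal carers. Over all sites these were 62525 with 79591 (r = 0.0325) and 62618 with 79685 (r = 0.00675), against a highest r of -0.0182. At sites of SD over 30 they were 62618 with 79685 (0.518), 62525 with 79591 (0.4927) and 79633 with 79677 (0.359), against a highest of 0.339. The mean reads per value at their shared sites were 11.3, 12.4 and 8.67. Which of these nestlings were cross-fostered was not analysed here.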

How the results depend on the processing

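No paired analysis was possible because the labels give no replicate numbers. The higher r within natal groups (0.0113) kept its sign in all of its alternatives. It passed p = 0.05 with each natal group left out in turn (0.00872 without SFO to 0.0132 without OFS), without nestling 79687 or 79676, and at 10 or more reads per value. It did not pass over sites measured in every nestling (0.0160, permutation p = 0.0508), in group nestlings with their own site means (0.00663, permutation p = 0.122), with the median over dyads (0.00500, permutation p = 0.18), without the tenth of sites with the highest SD (0.00310, permutation p = 0.0865) and with Spearman's rho (0.00598, permutation p = 0.0614). The 0.154 at sites of SD over 30 passed in all of its alternatives, each chosen after seeing the data, and ran from 0.112 without SFO to 0.216 without OFS as natal groups were left out. The alike dyads lie in SFO, OFQ and OFS, so leaving out a single code always keeps alike dyads of the other codes. No setting left out all of the alike dyads, so neither difference was tested without them. Group nestlings alone, which were not counted among these alternatives, gave 0.0617, which did not pass (two-sided permutation test, p = 0.0598).

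The difference in mean absolute difference (0.0128 points) passed in no setting. It was -0.0149 over sites measured in every nestling, -0.0331 at 10 or more reads, -0.140 without nestling 79687, -0.239 in pairs only, -0.136 as a median, -0.0953 over natal groups, -0.0391 at sites of 10 to 90% methylation and -0.0332 with carer class ignored. With natal groups left out in turn it ran from -0.120 (without OFS) to 0.0687 (without SFO). The depth correlation (0.0137) ran from -0.000376 (without OFS) to 0.0186 (without SFO).

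The number of sites that differed between natal groups, 0, was 21 at 10 or more reads, 306 with at least 6 residual degrees of freedom and 1260 with ordinary variances. It was 0 with each natal group left out in turn, and the cause of the larger numbers was not tested.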

Other observations

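The sites of SD over 30 were divided by alternate scaffolds in name order, into 1212 and 1367 sites that share no scaffold. Over the 378 dyads, r from one set and r from the other had a Pearson's r of 0.802, a description over dyads that share nestlings. In SFO the values were 0.524 and 0.515, in OFQ 0.432 and 0.478, and in 79684 with 79687 of OFS 0.578 and 0.457. For 62618 with 79685 they were 0.541 and 0.497, and for 62525 with 79591 0.514 and 0.476. BFD had -0.147 and -0.111.

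Other divisions of the sites gave the following values of r within and between natal groups. At 7417 sites with mean methylation under 50% the means were 0.00309 and -0.0513, and at 319795 sites of 50 to 80% they were -0.0303 and -0.0500. They were -0.0404 and -0.0488 at 754188 sites of 80 to 90%, and -0.0442 and -0.0474 at 483380 sites of 90% or more. At the 16160 sites where some nestling was at 10% or less and another at 90% or more, the means were 0.0531 and -0.0499, and 3 of the 11 dyads of the same code lay above all 196 of different codes. At 43216 sites whose nearest tabled site was over 1000 bases away the means were -0.0494 and -0.0526, against -0.0369 and -0.0487 at 1320291 sites with one within 50 bases.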
